A study of Mus musculus with 66 samples.

Results

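The genes described here are 10 that tell the spiny projection neurons of the striatum apart or that these neurons share. They were taken by symbol from a table of 24138 genes measured in 66 RNA-seq libraries of mouse ventral striatum. *Adora2a*, *Gpr6*, *Gpr52* and *Sp9* are listed here for neurons of the indirect pathway, *Isl1* and *Ebf1* for neurons of the direct pathway, and *Foxp1*, *Foxp2*, *Bcl11b* and *Meis2* as shared or mixed. Which cells of the tissue made the RNA of these genes was not measured. All 10 symbols were found once in the table, and all 10 genes reached 1 FPKM (fragments normalized to transcript length and to the fragments mapped in a library) in 66 of 66 libraries.

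The striatum sends its signals out through medium spiny neurons (MSNs), which also make up most of its neurons. Those of the direct pathway (dMSNs) carry the dopamine D1 receptor, which raises cAMP, and those of the indirect pathway (iMSNs) carry the D2 receptor (D2R), which lowers it. The adenosine receptor encoded by *Adora2a* opposes D2R in the same cells, whereas the transcription factors of the group set up and maintain the identities of the neurons during development.

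The libraries came from tissue punches of the nucleus accumbens (NAcc) of C57BL/6 mice (C57BL/6J background in the study's methods) kept in 12 h of light and 12 h of darkness. WT mice were compared with iMSN-D2RKO mice, which carry D2R flox/flox alleles and a Cre driven by the D1R promoter. In this line the recombination rests on embryonic precursors that express both receptors, and the punch still holds D2R made by other cells. Mice received saline or cocaine (20 mg/kg, i.p.) at zeitgeber time 3 (ZT3, in hours after lights on), and tissue was taken at ZT7, ZT11, ZT15, ZT19 and ZT23, with WT and iMSN-D2RKO mice also taken at ZT3. That gives 22 groups of 3 libraries. The ZT3 libraries open both the saline and the cocaine series of their genotype, so comparisons that use them share those samples. The deposited values are FPKM, which hold no read depth, so the depth behind a value is unknown. The sources do not say whether the 3 libraries of a group are 3 animals, and p-values measure the spread between these libraries.

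Spiny neuron genes were abundant in the punches, with means over the 66 libraries of 1148 FPKM for *Ppp1r1b* (the protein phosphatase inhibitor DARPP-32) and 100.9 FPKM for *Drd1*. The targeted gene *Drd2* ranged from 99.6 to 279.2 FPKM in WT mice (ZT3 and saline, median 126.5) and from 78.0 to 374.6 FPKM in iMSN-D2RKO mice (median 106.7), so the genotypes overlapped. Its log2 difference was −0.02 (SE 0.166, limma adjusted p = 0.978) under saline and −0.25 (SE 0.185, limma adjusted p = 0.9996) under cocaine. The FPKM value covers the whole gene and does not separate the deleted part of *Drd2* from the rest, so it does not check the deletion. Total FPKM ran from 364078 to 465297 in 65 libraries and was 690048 in iMSN-D2RKO ZT7 saline replicate 1. That library also held the highest *Penk*, at 9282 FPKM.

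Of the 66 libraries, 13 formed a cluster of their own on the leading component of the variation between libraries of a group (43.6% of it, over 9575 genes without the 10). They are called the libraries that stand apart. Scores on the component ran from 44.2 to 56.1 in the 13 and from −35.9 to 15.1 in the others. None of the 13 was taken at ZT3 or ZT11, 1 at ZT7, 2 at ZT15, 6 at ZT19 and 4 at ZT23, so they are unevenly spread over the day. At cocaine ZT19 they were 2 of the 3 WT libraries and 0 of the 3 iMSN-D2RKO libraries. Whether they differ in tissue, RNA or library preparation was not tested.

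*Adora2a* had the highest level, with a median of 182.0 FPKM and a range of 65.3 to 311.8. *Meis2*, a homeobox transcription factor, followed at a median of 93.03 FPKM (58.2 to 162.2) and *Gpr6*, a constitutively active receptor coupled to cAMP, at 89.4 FPKM (64.9 to 164.9). *Adora2a* was above *Meis2* in 52 of 66 libraries, and *Meis2* above *Gpr6* in 35 of 66, so the latter order did not hold beyond the spread of the libraries.

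Then came *Bcl11b*, a zinc-finger factor of spiny neurons also called Ctip2, at a median of 51.1 FPKM (30.6 to 105.5), and *Foxp1*, a forkhead repressor, at 49.8 FPKM (28.0 to 97.2). *Gpr52*, an orphan receptor that also raises cAMP, had a median of 40.4 FPKM (3.53 to 65.9). The lower levels belonged to transcription factors. *Foxp2*, the forkhead relative of *Foxp1*, had a median of 13.8 FPKM (9.47 to 33.8) and *Sp9*, a zinc-finger factor needed to make indirect-pathway neurons, 11.3 FPKM (6.43 to 19.7). *Isl1*, a LIM homeobox factor of direct-pathway neurons, had a median of 8.49 FPKM (5.19 to 13.7), and *Ebf1*, a helix-loop-helix factor of the same neurons, 3.37 FPKM (1.94 to 6.44). *Isl1* was above *Ebf1* in 66 of 66 libraries although their ranges overlapped. The genes used as markers of the indirect pathway were thus found at levels from 11.3 to 182.0 FPKM, and the pair of direct-pathway factors was at the bottom of the order.

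**Figure D1:**
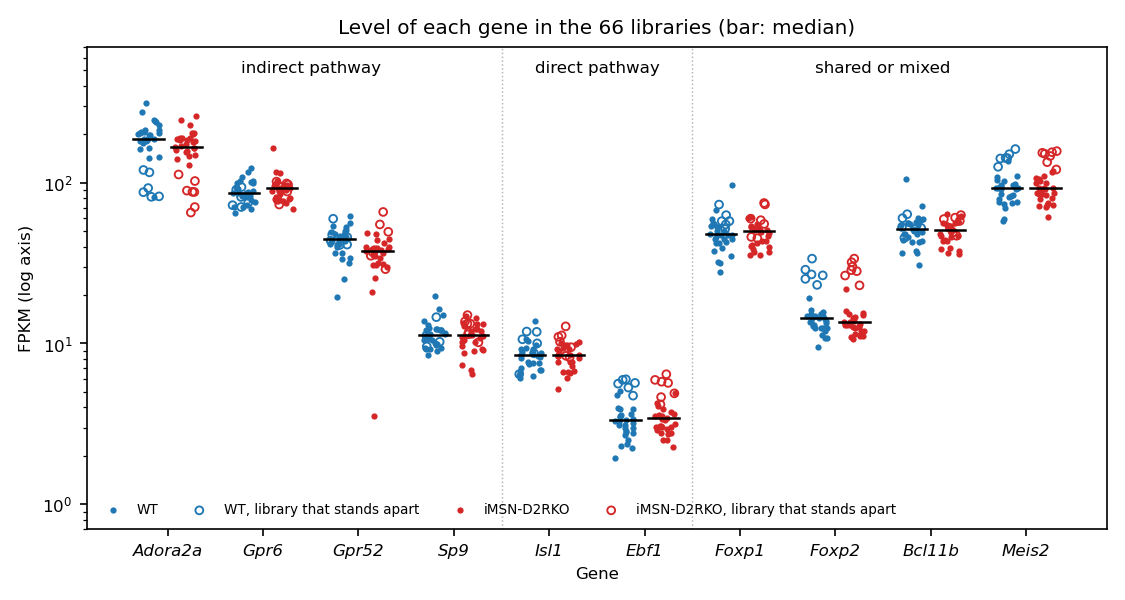
Level of each gene in FPKM (log axis) in the 66 libraries, WT in blue and iMSN-D2RKO in red. Open circles are the 13 libraries that stand apart, bars are medians. The clouds of both genotypes overlap for every gene, and a single iMSN-D2RKO library has *Gpr52* at 3.53 FPKM.

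The share of the sum of squares (log2 scale) found within groups went from 42.5% for *Meis2* to 74.5% for *Foxp1*. With 22 groups of 3 libraries, most of this sum lies within groups even where groups do not differ. A large share within groups thus does not show that the groups were alike. For *Adora2a* the group means ran from 93.2 ± 19.9 FPKM (SD, n = 3) in WT ZT19 cocaine to 250.7 ± 56.8 FPKM (SD, n = 3) in WT ZT7 cocaine, a ratio of 2.69. For *Foxp2* the ratio of the highest to the lowest group mean was 2.25 and for *Sp9* it was 1.51.

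*Adora2a* lies at chr10:75316877-75334784 on the plus strand (mm10, GENCODE annotation), *Gpr6* at chr10:41069977-41072285 on the minus strand and *Foxp2* at chr6:14901349-15441977 on the plus strand. *Isl1* is found at chr13:116298281-116309689 on the minus strand and *Meis2* at chr2:115863064-116065839 on the minus strand. *Foxp1* is on the same chromosome as *Foxp2*, at chr6:98925338-99522721, and *Sp9* on that of *Meis2*, at chr2:73271925-73284706.

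*Adora2a* and *Foxp2* had the largest median log2 differences in the libraries that stand apart, and their messages are shown with their base composition, whose part in those differences was not tested. The first 120 coding bases of each are shown 5′ to 3′ from the GENCODE transcripts, with G and C in capitals.
Adora2a: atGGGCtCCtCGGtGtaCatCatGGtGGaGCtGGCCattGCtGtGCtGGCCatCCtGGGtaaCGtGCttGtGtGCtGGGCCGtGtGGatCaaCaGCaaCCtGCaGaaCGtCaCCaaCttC
Foxp2: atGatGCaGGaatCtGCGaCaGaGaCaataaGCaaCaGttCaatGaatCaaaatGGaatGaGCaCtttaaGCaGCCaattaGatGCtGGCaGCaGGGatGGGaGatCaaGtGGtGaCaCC
G and C make up 69 of the 120 bases in *Adora2a* (57.5%) and 54 in *Foxp2* (45%), and 59.4% and 50.5% of the whole coding sequences. For the longest coding transcript the GC content was 59.2% in *Adora2a*, at percentile 92.2 of 11824 genes, and 42.6% in *Foxp2*, at percentile 12.4.

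Both genes moved strongly, in opposite directions, in the 13 libraries that stand apart. *Foxp2* was between 23 and 33.8 FPKM in the 13 (median 28.2) and between 9.47 and 21.8 FPKM in the 53 others (median 13.3), so the ranges did not overlap. Among the 9584 genes with a mean of at least 5 FPKM, 14.8% had ranges that did not overlap, and *Foxp2* was the only one of the 9 members above that mean to do so. *Adora2a* was between 65.3 and 120.2 FPKM in the 13 (median 87.8) and between 81.2 and 311.8 FPKM in the others (median 187.6). In the 10 groups that hold both kinds of library, *Foxp2* was higher in those that stand apart in 10 of 10 (median log2 difference 0.97), and *Adora2a* was higher in 1 of 10 (median −0.99).

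*Ebf1* and *Meis2* also moved with these libraries. *Ebf1* had a median of 5.68 FPKM in the 13 and 3.14 in the others, and it was higher in 10 of 10 groups. *Meis2* had medians of 146.9 and 91.4 FPKM and was higher in 10 of 10 groups. *Foxp1* was higher in 9 of 10 groups (median log2 difference 0.34) and *Isl1* in 6 of 10 (0.24). *Sp9*, *Bcl11b* and *Gpr6* differed little, with median log2 differences of 0.13, 0.13 and −0.13, and *Gpr52* stood at 0.31. The median absolute difference over the 9584 genes was 0.43, so *Foxp2*, *Adora2a*, *Meis2* and *Ebf1* were above it and the other 6 genes below.

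**Figure D2:**
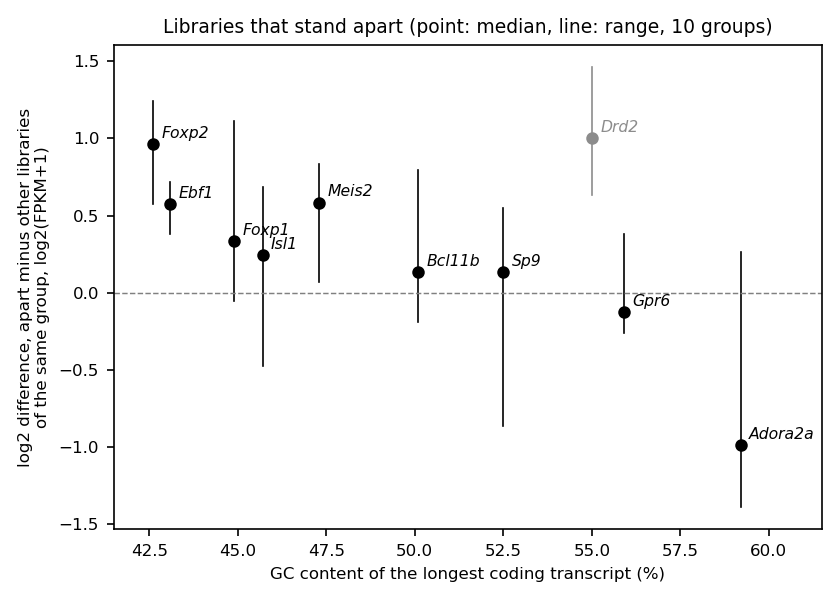
Log2 difference, on the log2(FPKM + 1) scale, between the libraries that stand apart and the others of the same group against the GC content (%) of the longest coding transcript. Points are medians over the 10 groups holding both kinds and lines are ranges; *Gpr52* has no transcript in the annotation used. *Foxp2*, at 42.6% GC, has a median of 0.97 and *Adora2a*, at 59.2% GC, −0.99, while *Drd2*, in grey, has 55% GC and a median of 1.0.

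Over 8874 genes with a transcript, weights on the component went with lower GC content (Spearman rho −0.656) and with greater length (rho 0.504), a description across genes that share the same libraries. *Drd2* did not follow that order, being higher in the libraries that stand apart in 10 of 10 groups (median 227.8 against 117.6 FPKM) with 55% GC. The summed level of 6 astrocyte markers was 529.7 to 621.8 FPKM in the 13 libraries and 320.2 to 611.2 in the others. For 6 oligodendrocyte markers the sums were 1826 to 3689 FPKM and 2075 to 5757 FPKM, and for 6 markers of cortical projection neurons 3.51 to 199.5 FPKM and 16.6 to 300.9 FPKM. For 6 markers of GABAergic interneurons the sums were 1128 to 2000 FPKM in the 13 (median 1558) and 716.2 to 3974 FPKM in the others (median 1147). Sums of 6 markers of choroid plexus and thalamus ran from 5.71 to 507.1 FPKM (median 15.6) and from 3.58 to 1155 FPKM (median 11.3). None of these markers was at 0 in most libraries, and their part in the levels of the 10 genes was not tested. In punches of tissue, fewer cells of a type and less RNA per cell cannot be told apart.

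To ask whether loss of D2R in iMSNs changed the level of the identity genes, WT and iMSN-D2RKO libraries were compared over the whole day with limma on log2(FPKM + 1), time point as a factor. At ZT3 and under saline none of the 10 genes differed between genotypes at an adjusted p of 0.05, where 27 of 14287 genes tested (0.189%) did and 1428 had an unadjusted p under 0.05. The median difference was −0.002 over the 10 genes and 0.013 over all genes tested.

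*Gpr52* was the member with the largest difference. It ran from 31.7 to 56.1 FPKM in the 18 WT libraries (median 45.5) and from 3.53 to 65.9 FPKM in the 18 iMSN-D2RKO libraries (median 35.3). The knockout libraries reached both lower and higher values, and the groups overlapped. *Gpr52* had a log2 difference of −0.47 (SE 0.178, 95% interval −0.84 to −0.11, limma adjusted p = 0.404). Without iMSN-D2RKO ZT7 saline replicate 1, where *Gpr52* was at 3.53 FPKM beside 31.3 and 49.0 FPKM in its group, the difference was −0.31 (SE 0.0951, limma adjusted p = 0.212). At ZT3 alone the 3 WT libraries held 56.1, 46.3 and 53.5 FPKM of *Gpr52* and the iMSN-D2RKO libraries 35.4, 34.9 and 38.6 FPKM, which did not overlap. At ZT15 under saline they held 48.7, 46.9 and 49.7 FPKM against 25.5, 31.5 and 37.1 FPKM, the last from a library that stands apart, again without overlap. *Gpr52* was separated also at ZT11, where WT libraries held 45.1, 53.8 and 43.0 FPKM under saline against 38.4, 39.7 and 36.5 FPKM. After cocaine at ZT11 they held 41.8, 50.8 and 47.9 FPKM against 36.3, 38.0 and 38.9 FPKM. In these 4 of 11 contrasts of 3 against 3 libraries the share of all 14643 genes without overlap was 14.1% at ZT3, 22.6% at ZT15 under saline, 11.1% at ZT11 under saline and 8.39% at ZT11 after cocaine, and WT values of *Gpr52* were the higher ones each time. In the other 7 contrasts *Gpr52* overlapped. None of the 4 contrasts called *Gpr52* in limma (adjusted p = 0.824 at ZT15 and 1 in the other 3), with 0.041% of genes called at ZT3 and 0.0% in the other 3.

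*Adora2a* ran from 87.4 to 247.4 FPKM in WT (median 191.8) and from 65.3 to 262.0 FPKM in iMSN-D2RKO mice (median 166.7), and the lowest values of both genotypes were libraries that stand apart. *Adora2a* had a log2 difference of −0.19 (SE 0.144, 95% interval −0.49 to 0.10, limma adjusted p = 0.691). *Gpr6* differed by 0.08 (95% interval −0.09 to 0.25) and *Sp9* by 0.01 (−0.16 to 0.19). For *Isl1* the 95% interval was −0.14 to 0.16 and for *Ebf1* −0.19 to 0.16, from 18 against 18 libraries on the log2(FPKM + 1) scale. This scale understates fold changes of genes as low as these direct-pathway factors, so their bounds in fold change are wider. *Foxp2* had the widest interval among the shared genes, −0.24 to 0.29, and *Meis2* differed by 0.07, *Foxp1* by −0.04 and *Bcl11b* by −0.08.

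Under cocaine, 15 against 15 libraries, none of the 10 genes was called either, where 7 of 14382 genes (0.0487%) were and 510 had an unadjusted p under 0.05. *Sp9* showed a log2 difference of −0.10 (95% interval −0.29 to 0.10) and *Adora2a* one of −0.10 (−0.47 to 0.27). *Gpr52* was at 19.5 to 62.1 FPKM in WT (median 41.8) and at 29.98 to 55.1 FPKM in iMSN-D2RKO mice (median 38.9), with a log2 difference of −0.06 (−0.31 to 0.19).

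Among 6 further indirect-pathway genes, 1 was called in each of these comparisons. It was *Penk*, which encodes the enkephalin precursor, higher in iMSN-D2RKO mice by 0.76 (SE 0.152, limma adjusted p = 0.0165) under saline and by 0.69 (SE 0.128, limma adjusted p = 0.0224) under cocaine, on the log2 scale. None of the 7 other direct-pathway genes was called, *Drd1* having log2 differences of 0.29 (limma adjusted p = 0.117) and 0.48 (limma adjusted p = 0.194). None of 9 genes of both pathways (such as *Ppp1r1b* and *Adcy5*), of 11 other striatal transcription factors tested (such as *Rarb* and *Dlx6*) and of 11 paralogues tested (such as *Adora1* and *Bcl11a*) was called.

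To ask whether cocaine changed the level of the genes, saline and cocaine libraries of ZT7 to ZT23 were compared within each genotype, 15 against 15. In WT mice limma called 0 of 14392 genes (0.0%), with 365 at an unadjusted p under 0.05, and none of these 365 was among the 10. *Sp9* was closest, at 8.94 to 14.6 FPKM under saline (median 10.8) and 9.42 to 19.7 FPKM under cocaine (median 11.6). The groups of *Sp9* overlapped, and the log2 difference was 0.15 (SE 0.0804, unadjusted p = 0.0758, limma adjusted p = 0.9996). *Adora2a* had a median of 184.5 FPKM under saline and 187.6 FPKM under cocaine, with a log2 difference of −0.04 (95% interval −0.34 to 0.26).

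In iMSN-D2RKO mice limma called 0 of 14238 genes (0.0%), with 425 at an unadjusted p under 0.05. *Bcl11b* was 1 of the 425, at 35.8 to 62.4 FPKM under saline (median 46.7) and 43.1 to 63.8 FPKM under cocaine (median 54.5), a log2 difference of 0.18 (SE 0.0843, unadjusted p = 0.0443, limma adjusted p = 0.9994). *Gpr52* had a log2 difference of 0.36 (SE 0.229, limma adjusted p = 0.9994), and its lowest saline value was again that of ZT7 replicate 1. The median difference over the 10 genes was 0.033 in WT and 0.078 in iMSN-D2RKO mice. The response to cocaine was also compared between genotypes as an interaction. Limma called 0 of 14622 genes (0.0%), with 213 at an unadjusted p under 0.05, and the interaction of *Gpr52* was 0.41 (95% interval −0.11 to 0.92) and that of *Adora2a* 0.15 (−0.34 to 0.63).

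**Figure D3:**
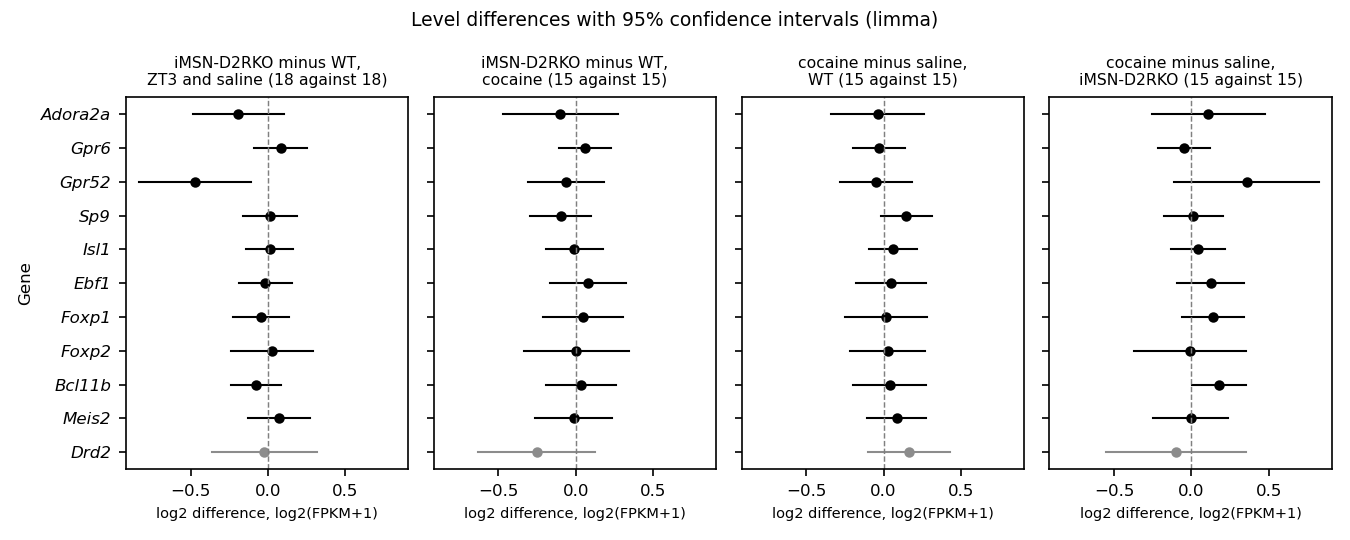
Log2 differences of the 10 genes and *Drd2* (grey) in 4 comparisons, on the log2(FPKM + 1) scale, with 95% intervals from limma. *Gpr52* under saline, at −0.47, and *Bcl11b* with cocaine in iMSN-D2RKO mice, at 0.18, have intervals that leave out 0, and neither passes the adjusted p of 0.05.

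The genes were then compared among times of day. Over the 66 libraries, limma called 7304 of 14643 genes tested for a difference among the 6 time points (49.9%), and 3 of the 10 identity genes. Without replicate 1 of every group 1663 genes were called and without replicate 3 2404. The 3 members were *Meis2* (limma adjusted p = 0.00382), *Adora2a* (0.0194) and *Isl1* (0.0289). *Foxp2* (0.0700) and *Ebf1* (0.0740) did not pass, and *Sp9* (0.357), *Gpr52* (0.402), *Gpr6* (0.625), *Foxp1* (0.671) and *Bcl11b* (0.847) were farther from the threshold. Of the other lists, 2 of 6 indirect-pathway genes (*Penk* and *Ptprm*), 3 of 7 direct-pathway genes (*Eya1*, *Pdyn* and *Slc35d3*), 2 of 9 genes of both pathways (*Adcy5*, the main striatal adenylyl cyclase, and *Gng7*) and 2 of 11 transcription factors (*Dlx5* and *Meis1*) were called.

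*Adora2a* had its lowest median at ZT19. Medians were 189.8 FPKM at ZT3, 205.4 at ZT7, 186.4 at ZT11, 173.1 at ZT15, 118.2 at ZT19 and 178.3 at ZT23. In the libraries that do not stand apart the ZT19 median was 178.1 FPKM, close to the other time points, and with those libraries alone *Adora2a* had a limma adjusted p of 0.302. *Meis2* had its highest median at ZT19, with medians of 77.4 FPKM at ZT3, 93.9 at ZT7, 79.4 at ZT11, 99.1 at ZT15, 130.1 at ZT19 and 105.1 at ZT23. In the libraries that do not stand apart the ZT19 median of *Meis2* was 88.0 FPKM and the limma adjusted p was 0.187. Of the 12 ZT19 libraries 6 stand apart, so time of day and this property of the libraries overlap in the data.

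*Isl1* was different in this respect. Its medians were 8.04 FPKM at ZT3, 9.21 at ZT7, 7.27 at ZT11, 8.59 at ZT15, 9.05 at ZT19 and 7.99 at ZT23. *Isl1* kept its call without the 13 libraries (limma adjusted p = 0.0423), where 3360 of 14438 genes (23.3%) were called, with medians of 9.04 FPKM at ZT7, 7.27 at ZT11 and 7.23 at ZT23. It also passed with the library score as a covariate (0.0493, with 37.4% of genes called) and without replicate 3 of every group (0.0197, with 16.7% called). Leaving out replicate 1 gave *Isl1* an adjusted p of 0.297 (11.5% of genes called) and leaving out replicate 2 gave 0.189 (48.9% called).

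The 250 bases before the start of transcription are shown for *Isl1* and *Meis2*, which were called for time point over all libraries, and for *Gpr6*, whose window holds a full cAMP response element (CRE). They come from RefSeq (GRCm38) and are written 5′ to 3′ on the gene's own strand. Capitals mark the CRE core TGACG or its reverse complement, and the full CRE TGACGTCA in *Gpr6*.
Isl1, chr13:116309689-116309938, minus strand: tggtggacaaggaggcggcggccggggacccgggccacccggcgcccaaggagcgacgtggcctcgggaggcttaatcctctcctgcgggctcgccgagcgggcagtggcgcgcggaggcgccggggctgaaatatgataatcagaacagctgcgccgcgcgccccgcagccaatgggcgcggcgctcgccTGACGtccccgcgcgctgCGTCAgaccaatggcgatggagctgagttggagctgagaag
Meis2, chr2:116064620-116064869, minus strand: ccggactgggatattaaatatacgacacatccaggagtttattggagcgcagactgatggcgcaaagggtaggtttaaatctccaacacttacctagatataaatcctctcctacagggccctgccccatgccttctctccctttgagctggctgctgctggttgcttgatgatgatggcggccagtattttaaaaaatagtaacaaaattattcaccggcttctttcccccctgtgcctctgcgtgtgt
Gpr6, chr10:41072291-41072540, minus strand: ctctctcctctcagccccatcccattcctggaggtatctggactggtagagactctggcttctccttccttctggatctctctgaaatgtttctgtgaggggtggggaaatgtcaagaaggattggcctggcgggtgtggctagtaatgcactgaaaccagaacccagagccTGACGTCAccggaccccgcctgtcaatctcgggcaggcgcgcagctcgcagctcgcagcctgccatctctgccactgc
The window of *Isl1* held 2 copies of the core, at −59 and −41 on opposite strands, that of *Gpr6* a CRE at −78, and that of *Meis2* none. RefSeq's start of *Meis2* lies 1220 bases inside the GENCODE gene given above, so its window precedes another start of transcription than the outermost one. Of 32851 windows of this length 1.55% held the CRE and 17.8% the core, on either strand. The E-box CACGTG, bound by the clock proteins, was found in 6.02% of windows and in none of these, and the D-box TTATGTAA in 0.819% and in none of these. GC content was 71.2% in the *Isl1* window, 47.6% in that of *Meis2* and 58.4% in that of *Gpr6*, against a median of 52.4%. A match is a description of the letters.

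The genotypes were then compared at each time point in a model of all 22 groups, 3 against 3 libraries in each contrast. A single member passed in 1 of 11 contrasts. In the contrasts without a member past the test, 0.0% to 0.041% of genes were called (0.0137% at ZT23 after cocaine), except for 4.4% at ZT15 after cocaine and 3.07% at ZT7 under saline. At ZT19 after cocaine *Meis2* was at 125.8, 136.1 and 162.2 FPKM in WT and at 85.6, 86.4 and 70.4 FPKM in iMSN-D2RKO mice. All WT values were above all iMSN-D2RKO values, and the first and the last of the WT libraries stand apart. The log2 difference of *Meis2* was −0.80 (SE 0.234, limma adjusted p = 0.0441), in a contrast that called 1743 of 14643 genes (11.9%), 577 of them higher and 1166 lower in iMSN-D2RKO mice.

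Other members were separated in the same contrast without passing, in which 44.9% of the 14643 genes did not overlap and 5544 had an unadjusted p under 0.05. *Adora2a* was at 82.4, 81.2 and 116.2 FPKM in WT and at 199.8, 190.8 and 163.6 FPKM in iMSN-D2RKO mice, with no overlap. This difference of 0.99 (SE 0.361) had a limma adjusted p of 0.0555. *Adora2a* was low also in the WT library that does not stand apart, replicate 2 with 81.2 FPKM, whose score was the highest of the 53 at 15.1. *Foxp2* was at 25.3, 19.3 and 33.7 FPKM in WT and at 13.7, 12.9 and 11.4 FPKM in iMSN-D2RKO mice (log2 difference −0.96, limma adjusted p = 0.0532). *Isl1* was at 8.69, 13.7 and 10.6 FPKM against 8.11, 7.71 and 7.69 FPKM (−0.42, limma adjusted p = 0.0929). The targeted gene *Drd2* was at 213.0, 164.1 and 304.4 FPKM against 109.1, 118.6 and 81.1 FPKM (−1.11, limma adjusted p = 0.0590).

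With the library score as a covariate the difference of *Meis2* at this time was −0.35 (limma adjusted p = 0.365) and that of *Adora2a* 0.23 (0.608), and 4 genes (0.0273%) were called. Without the libraries that stand apart WT keeps a single library, which is then assumed to vary like the other groups. In that fit *Adora2a* had a log2 difference of 1.17 (limma adjusted p = 0.00266), *Meis2* one of −0.75 (0.0274) and *Isl1* one of −0.74 (0.0140), where 2948 of 14438 genes (20.4%) were called. With 1 such WT library, the genotype and this property of the libraries cannot be told apart at ZT19 after cocaine. Of the other lists, *Drd1* (0.74) and *Adcy5* (0.88) were called higher in iMSN-D2RKO mice in this contrast and *Sfxn1* (−0.64), *Dlx5* (−1.56) and *Bcl11a* (−1.08) lower, on the log2 scale.

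*Gpr6* was the member nearest to the threshold elsewhere. At ZT7 under saline it was at 76.5, 94.1 and 71.0 FPKM in WT and at 164.9, 99.0 and 102.1 FPKM in iMSN-D2RKO mice, with no overlap, as for 19.1% of genes. The log2 difference of *Gpr6* was 0.56 (SE 0.179, limma adjusted p = 0.0667), where 449 of 14643 genes (3.07%) were called. The value of 164.9 FPKM came from replicate 1, the library with the highest total FPKM, and without it the difference of *Gpr6* was 0.33 (SE 0.186) with 10 genes called (0.0686%). Of the other lists, *Penk*, *Rgs9*, *Rxrg* and *Adora1* were called in this contrast, and *Penk* at ZT15 after cocaine. *Gpr6* was separated also at ZT23, at 72.6, 86.6 and 83.3 FPKM in WT against 97.1, 92.9 and 88.2 FPKM under saline (5.01% of genes). After cocaine it was at 64.9, 81.2 and 70.7 against 95.4, 93.1 and 89.3 FPKM (7.37%). Elsewhere *Gpr6* overlapped. *Sp9* and *Bcl11b* were separated in these ZT23 contrasts, respectively, *Foxp2* at ZT11 (11.1%) and *Ebf1* at ZT15 (22.6%) under saline, none passing.

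Cocaine was also compared with saline at each time point within each genotype. None of the 10 genes passed in any of the 10 contrasts, in which limma called 0 to 3 of 14643 genes (0.0% in 6 contrasts, 0.00683% in WT mice at ZT7 and at ZT15, 0.0137% in iMSN-D2RKO mice at ZT7 and 0.0205% in WT mice at ZT19). The lowest adjusted p was that of *Gpr52* in iMSN-D2RKO mice at ZT7, where cocaine libraries held 48.0, 38.1 and 39.6 FPKM (the second stands apart) and saline libraries 3.53, 31.3 and 49.0 FPKM (log2 difference 1.14, limma adjusted p = 0.124). Without the saline library at 3.53 FPKM that difference of *Gpr52* was 0.09. Over the 10 genes the median log2 difference ran from −0.169 in WT mice at ZT23 (2 genes above 0) to 0.309 in WT mice at ZT7 (9 above 0). Over all genes these medians were −0.0086 and 0.0032. In iMSN-D2RKO mice at ZT15 all 10 were above 0 (median 0.193). Many of the genes vary together between libraries, so their directions are not independent, and these shifts were not tested as a set.

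Rhythms were called with JTK_CYCLE, a rank test for cycling, at a corrected p under 0.01, each series opening with the ZT3 libraries of its genotype. The correction covers the 11 pairs of period and phase within a gene and not the number of genes, unlike the limma adjusted p. In WT mice after cocaine 1073 of 14405 genes (7.45%) were called, and 1 of the 10 identity genes was among them. This was *Adora2a*, with a corrected p of 0.00115, a period of 24 h and a phase of 6 h after ZT3. Its values were 199.2, 144.1 and 204.5 FPKM at ZT3, 240.7, 311.8 and 199.6 at ZT7, and 213.3, 242.4 and 187.6 at ZT11. They went on with 276.7, 177.7 and 187.6 FPKM at ZT15, 82.4, 81.2 and 116.2 at ZT19, and 143.6, 182.9 and 81.8 at ZT23. The mean of *Adora2a* was highest at ZT7 (250.7 FPKM), similar at ZT11 and ZT15 (214.4 and 214.0 FPKM) and lowest at ZT19 (93.2 FPKM). The last library at ZT23 and the first and the last at ZT19 stand apart.

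In the other 3 series *Adora2a* was not called. The corrected p was 0.995 in WT mice under saline, where 1371 of 14405 genes (9.52%) were called, 0.041 in iMSN-D2RKO mice under saline (366 of 14267 genes, 2.57%) and 1 in iMSN-D2RKO mice after cocaine (156 of 14267 genes, 1.09%). WT values of *Adora2a* under saline were 211.7, 206.3 and 183.9 FPKM at ZT7, 201.2, 247.4 and 164.1 at ZT11, and 184.5, 161.5 and 183.1 at ZT15. At ZT19 they were 120.2, 92.7 and 227.3 FPKM, of which the first and the second stand apart, and at ZT23 87.4, 208.2 and 203.6 FPKM, of which the first stands apart. In iMSN-D2RKO mice after cocaine the ZT19 values were 199.8, 190.8 and 163.6 FPKM, and those at ZT7 were 204.6, 87.7 and 191.1 FPKM, of which the second stands apart. *Adora2a* was at or under 120.2 FPKM in all 13 libraries that stand apart and in 1 of the 53 others.

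A call in one series and not in another does not show a difference between them, so the daily courses were compared directly, as the interaction of group with a 24 h cosine and sine in limma. No gene was called in any of the 4 comparisons (0.0%). For *Adora2a*, WT against iMSN-D2RKO mice after cocaine had an unadjusted p of 0.0082 (limma adjusted p = 0.590; 695 genes of 14382 had an unadjusted p under 0.05). Saline against cocaine in WT mice gave *Adora2a* an unadjusted p of 0.212 (198 genes under 0.05), WT against iMSN-D2RKO under saline 0.322 (355 genes) and saline against cocaine in iMSN-D2RKO mice 0.0772 (789 genes).

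The JTK_CYCLE call of *Adora2a* after cocaine, from an exact rank test, was lost when the libraries that stand apart were left out (corrected p = 0.0435), when replicate 1, 2 or 3 was left out (0.0156, 0.134 and 0.0286), and without ZT7 (0.0121), ZT19 (0.0606) or ZT23 (0.0282). It was kept without ZT3, ZT11 or ZT15. A limma F test of cosine and sine over WT cocaine libraries also called *Adora2a* (limma adjusted p = 0.0243, where 14.6% of genes were called). The same limma test called *Meis2* in WT saline libraries (0.0376, where 14.1% were called) and no member in iMSN-D2RKO mice (0.00707% of genes under saline and 0.0% after cocaine). Of the other lists it called *Plxdc1*, *Adcy5*, *Gng7*, *Dlx5*, *Bcl11a* and *Gpr3* in WT mice after cocaine and *Penk*, *Slc35d3*, *Pde10a*, *Zfp503* and *Adora1* in WT mice under saline.

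Other identity genes came near the threshold in WT mice under saline, where none was called. The corrected p was 0.0154 for *Foxp2*, 0.0199 for *Foxp1* and 0.0216 for *Meis2*. In that series *Meis2* was lowest at ZT3 and ZT7 (93.8, 58.2 and 75.1 FPKM, and 85.3, 59.4 and 69.6 FPKM) and highest at ZT19 (150.7, 142.6 and 103.7 FPKM, the first and the second from libraries that stand apart). *Foxp2* was between 10.9 and 16.1 FPKM in the 15 WT saline libraries that do not stand apart and between 23.2 and 28.8 FPKM in the 3 that do. With those 3 left out *Foxp2* was called at a corrected p under 0.01, where 6.09% of genes were. Of the genes on the other lists, *Plxdc1* was rhythmic in WT mice after cocaine, and *Sfxn1*, *Slc35d3*, *Pde10a*, *Zfp503*, *Adora1* and *Gpr12* in WT mice under saline. In iMSN-D2RKO mice *Chrm4* was rhythmic under saline and *Gpr3* after cocaine. Of the markers of other cells, *Slc18a3* (cholinergic interneurons), *Pecam1* (endothelium) and *Mog* (oligodendrocytes) were rhythmic in WT mice after cocaine, endothelial *Flt1* in WT mice under saline, and *Slc18a3* and endothelial *Cldn5* and *Slc2a1* in iMSN-D2RKO mice under saline.

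**Figure D4:**
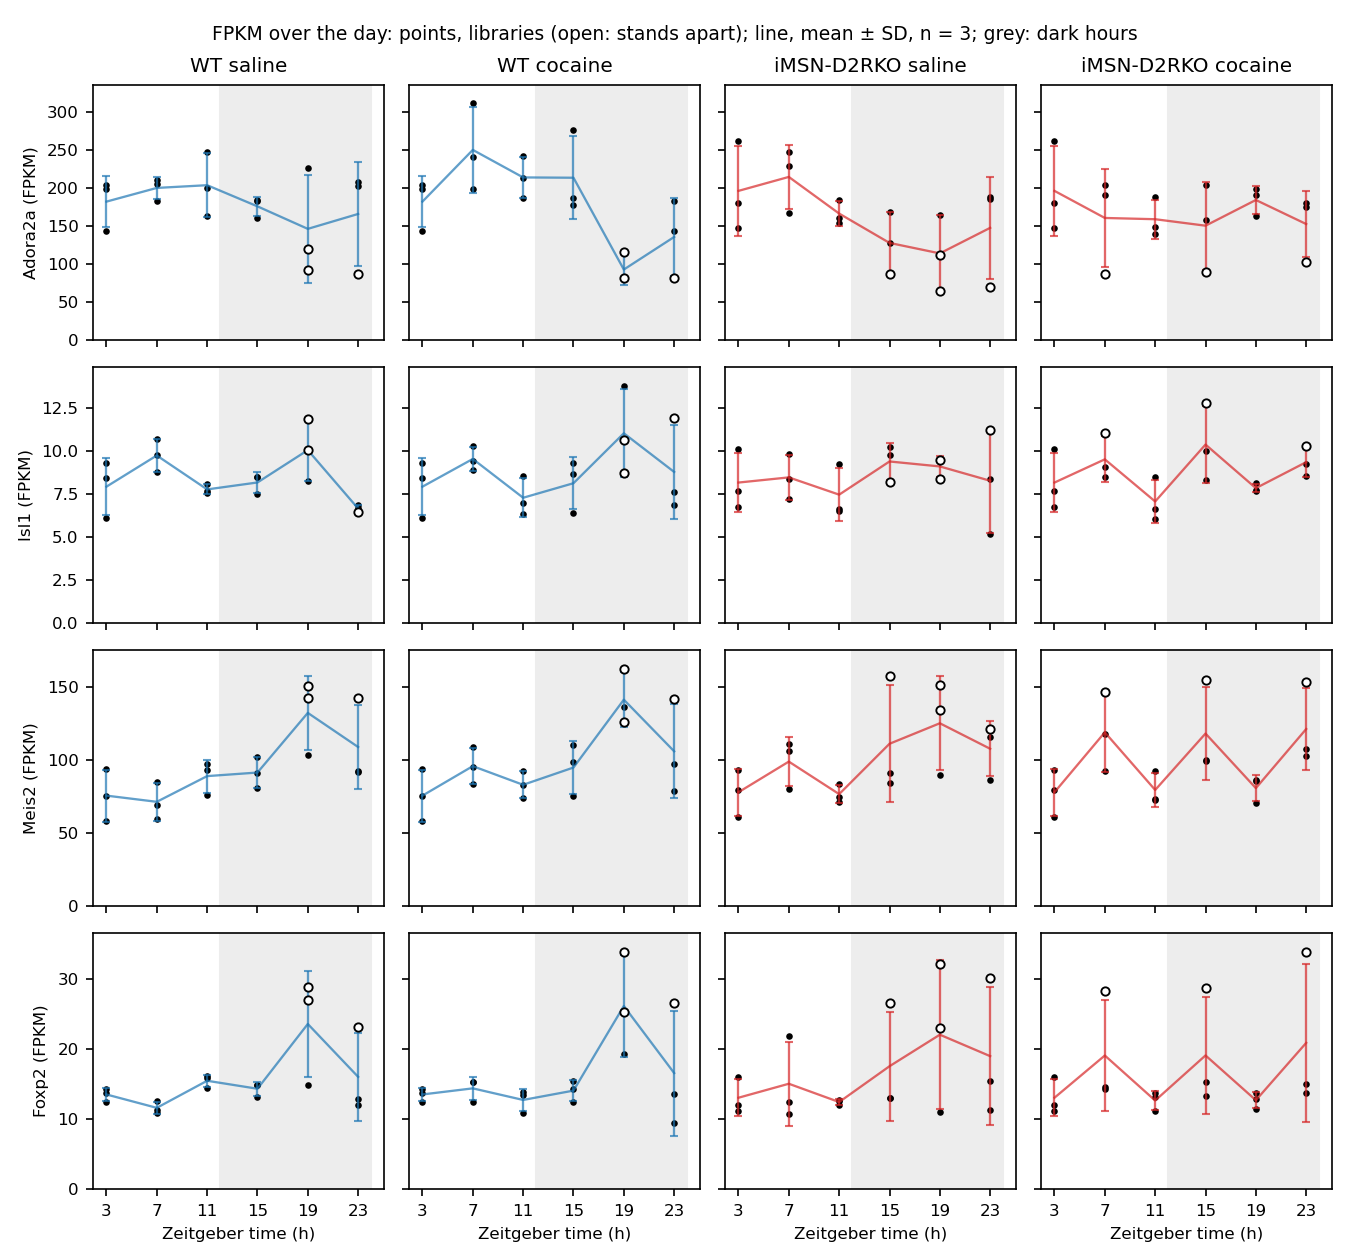
FPKM of *Adora2a*, *Isl1*, *Meis2* and *Foxp2* at each zeitgeber time in the 4 series, with the dark hours in grey. Points are libraries (open circles stand apart) and lines join means with SD (n = 3); the low *Adora2a* values and the high *Foxp2* values at ZT19 and ZT23 are mostly open circles.

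Finally, it was asked which of the genes rose and fell together between libraries of the same group. Deviations from group means were correlated over the 50 libraries that do not stand apart and are not alone in their group. Of 45 pairs, 30 passed an adjusted p of 0.05 on Pearson's r, 29 of them positive. Each pair was also tested without the 2 libraries farthest from the median of the gene named first in the opening list. Of the 30, *Adora2a* with *Isl1* (permutation adjusted p = 0.217), *Isl1* with *Foxp2* (0.207) and *Gpr52* with *Foxp2* (0.36) and *Bcl11b* (0.0819) then failed. *Gpr52* with *Isl1*, not among the 30, then passed (0.0386). The weakest of the 30 had an absolute r of 0.317, which 55.5% of all pairs among 9575 other genes reached over the same libraries, against 66.7% of the pairs of members. The median absolute r was 0.389 for the members and 0.359 for all pairs. All p-values come from permutation tests with 100000 resamples, and 1e-05 is the smallest they can give. The tests shuffled deviations freely over the 50 libraries, although the deviations of a group are tied by its mean. They treat the libraries as more independent than they are, so the p-values can be too small.

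The tightest pair was *Foxp1* and *Bcl11b*, which had r = 0.926 (rho 0.918, permutation p = 1e-05, adjusted 4.09e-05). *Ebf1* joined these shared factors, with r = 0.854 to *Foxp1*, 0.854 to *Meis2* and 0.769 to *Bcl11b*, all at the smallest p. Of the indirect-pathway genes, *Adora2a* and *Gpr6* varied together, with r = 0.798 (rho 0.761, permutation p = 1e-05) and r = 0.758 without the 2 farthest libraries. *Sp9* went with *Foxp2* (r = 0.724) more than with *Adora2a* (0.557) or *Gpr6* (0.454), a difference that was not tested. *Isl1* and *Ebf1*, both listed here for direct-pathway neurons, showed r = 0.10 (rho 0.124, permutation p = 0.488). Whether their RNA came from the same cells of the punch was not measured.

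*Gpr52* was the exception. It had r = −0.406 with *Foxp2* (permutation p = 0.0118) but rho = 0.16, and r = 0.151 without the 2 farthest libraries, so the negative relation rests on those. When iMSN-D2RKO ZT7 saline replicate 1, with *Gpr52* at 3.53 FPKM, was left out, 33 pairs passed and all were positive. These libraries share tissue punches whose make-up can vary, and the part of that in the correlations was not tested.

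**Figure D5:**
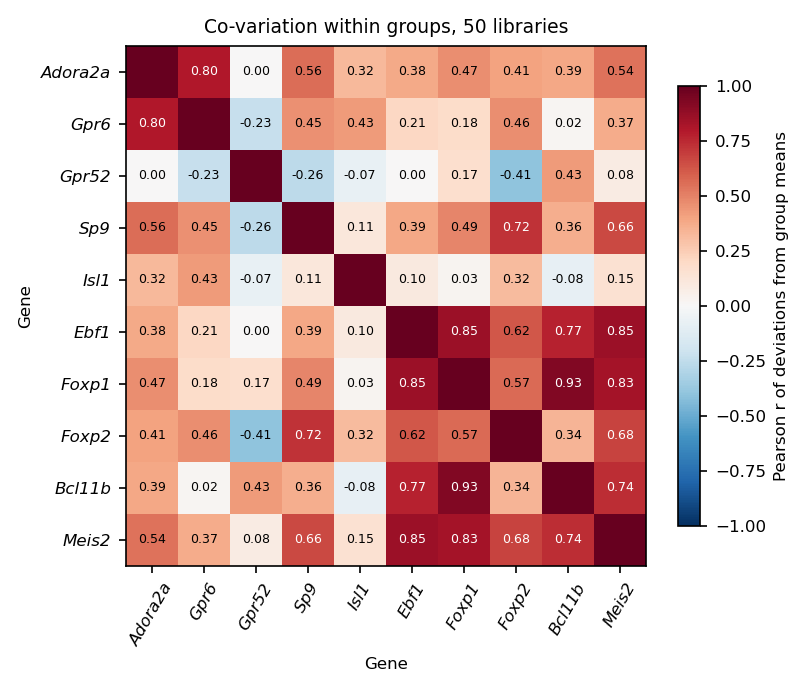
Pearson's r of the deviations from group means, on the log2(FPKM + 1) scale, between each pair of the 10 genes over 50 libraries, from blue (negative) to red (positive). *Foxp1*, *Bcl11b*, *Ebf1* and *Meis2* form a block of r from 0.740 to 0.926, and *Isl1* and *Gpr52* have the palest squares.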

How the data were processed

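Total RNA of NAcc punches was sequenced as stranded mRNA libraries (single-end). The authors called bases with CASAVA 1.8.2, aligned reads to mm10 with TopHat and Bowtie, and made 1 table of FPKM with Cufflinks and Cuffnorm, and these deposited FPKM values were used as they are. The annotation release is not given in the sources used here. The table has 72 columns for 66 libraries, since the 6 ZT3 libraries are listed in both the saline and the cocaine series with identical values, and each was used once in a fit. Columns of the authors' own comparisons were not used.

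Values were analyzed as log2(FPKM + 1) in limma 3.58.1 (R 4.3.3) with a trend and empirical Bayes moderation, keeping genes with at least 1 FPKM in 1 library of the fit, and p-values were adjusted by Benjamini-Hochberg over all genes tested. A fold change on this scale is understated for low genes. JTK_CYCLE used FPKM, periods of 20 h and 24 h, Bonferroni correction over 11 pairs of period and phase, and Dixon's test at 95% for single replicates. How its templates rank tied time points was settled by comparison with the study's source table. Both procedures were tested on simulated data. For limma these had independent noise for each gene and no libraries that stand apart, so they do not show how the fits behave with such libraries. Same-numbered replicates did not deviate together (median r −0.00269, from −0.895 to 0.88), so replicate numbers were not taken as pairs. The members and gene lists were chosen with earlier results of these data known. Named are the 10 members, *Drd2*, genes past a test from the lists of spiny neuron genes, striatal transcription factors and paralogues, up to 4 of the highest level in each list, and for each member the gene nearest to it in co-variation. Alternatives were another pseudocount, other filters, rescaling, a replicate block, leaving out replicates, time points or the libraries that stand apart, and the library score as a covariate. Leaving out iMSN-D2RKO ZT7 saline replicate 1, other tie orders, and the cosine test without the libraries that stand apart were added after seeing the data.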

Additional observations from a re-analysis of the deposited data

How the results depend on the processing

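The 10 genes kept their direction and their side of the threshold in most alternatives of the level comparisons, and the depth behind the FPKM values is unknown. Directions that turned were those of small differences, given here as the lowest and highest log2 difference when replicate 1, 2 or 3 was left out. The genotype difference of *Meis2* under saline went from −0.041 (without replicate 3) to 0.176. The cocaine difference in WT mice went from −0.160 to 0.135 (without replicate 3) for *Adora2a* and from −0.136 to 0.085 (without replicate 2) for *Gpr52*. Without replicate 3 it was lowest, and otherwise positive, for *Ebf1* (−0.133 to 0.142), *Foxp1* (−0.171 to 0.115), *Foxp2* (−0.181 to 0.164), *Bcl11b* (−0.0986 to 0.1095) and *Meis2* (−0.064 to 0.230). The interaction turned without replicate 3 for *Adora2a* (−0.109 to 0.309), *Foxp2* (−0.204 to 0.243) and *Meis2* (−0.266 to 0.129). The cause of these turns was not tested.

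For time point, 3 members were called in the fit of all libraries (49.9% of genes). With a replicate left out they were 0 to 4 (11.5% to 48.9% of genes). Only *Isl1* was called without the libraries that stand apart (23.3%) or with the library score as a covariate (37.4%). Calls between genotypes at single time points were 1 in all libraries and 0 with no filter on low values. They were 2 with a mean of at least 1 FPKM and 0 to 1 when a replicate was left out. With the score as a covariate they were 2, and without iMSN-D2RKO ZT7 saline replicate 1 they were 3. No count is given without the libraries that stand apart, where some ZT19 groups keep 1 library. The share of all genes called also differed. At ZT19 after cocaine it was 11.9% in all libraries, 0.00988% with no filter and 14.4% with a mean of at least 1 FPKM. *Meis2* at ZT19 after cocaine had a limma adjusted p of 0.0568 with no filter and from 0.0806 to 0.202 without a replicate. Calls for cocaine at single time points were 0 in all libraries and 0 to 1 without a replicate. The 1 was *Gpr52* in iMSN-D2RKO mice at ZT7, where up to 9.11% of genes were called without a replicate. Without the libraries that stand apart, WT mice keep 1 saline and 1 cocaine library at ZT19, so no count is given. Those libraries held 227.3 and 81.2 FPKM of *Adora2a*.

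The rhythmic members of WT saline mice were 0 at a corrected p under 0.01 (9.52% of genes called). They were 1 (*Foxp2*) without the libraries that stand apart (6.09%) or without ZT11, ZT15 or ZT23 (7.03% to 8.3%). At a corrected p under 0.05 they were 3 (23.2%), and with the cosine test 1 (*Meis2*, 14.1%). In WT cocaine mice the 1 rhythmic member became 0 without any of replicates 1 to 3, without the libraries that stand apart (JTK_CYCLE or the cosine test) and without ZT7, ZT19 or ZT23. In iMSN-D2RKO saline mice 1 member (*Adora2a*) was called at a corrected p under 0.05, where 11.2% of genes were. Pairs of co-varying genes, 30 in all libraries used, were 17 to 33 without a replicate or without iMSN-D2RKO ZT7 saline replicate 1.

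With the replicate number as a block the count of members called for time point stayed at 3, and the cosine test with this block called 2 members in WT saline mice (*Foxp1* and *Meis2*) in place of 1. The block changed no other call.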

Other observations

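Relatives of the identity genes were also measured. Among 14 paralogues, *Adora1*, the inhibitory adenosine receptor, had a mean of 47.9 FPKM against 171.1 FPKM for *Adora2a*, and *Adora2b* had 1.93 FPKM. *Bcl11a* was at 36.8 FPKM and *Foxp4* at 11.3 FPKM, whereas *Isl2*, *Ebf2* and *Ebf3* had means of 0.0104, 0.0841 and 0.1995 FPKM. *Gpr3* and *Gpr12*, the relatives of *Gpr6*, were at 3.68 and 23.5 FPKM. *Adora1*, *Gpr21*, *Gpr3* and *Meis1* were called for time point by limma, 4 of 11 paralogues tested.

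For each identity gene, the gene with the most similar deviations from group means was found among 9575 genes over 50 libraries, as a description with no test. *Rarb*, a retinoic acid receptor of the striatum, had Pearson's r = 0.900 to *Adora2a*, and *Six3*, a homeobox factor, r = 0.702 to *Isl1*. *Chst15* had r = 0.947 to *Bcl11b*, *Actn1* r = 0.937 to *Foxp1*, *Lppr4* r = 0.916 to *Meis2* and *Prkcb* r = 0.871 to *Ebf1*. The gene listed as *B230219D22Rik* had r = 0.936 to *Gpr52*, *Pabpc1* r = 0.833 to *Foxp2*, *Zfp667* r = 0.825 to *Sp9* and *Asphd2* r = 0.818 to *Gpr6*.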
